A study of Mus musculus with 4 samples.

Results

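The levels of 49 DNA replication genes were read in RNA-seq of immortalized, cycling mouse tail tip fibroblasts (TTF), and transgenic (TG) cells were compared with wildtype (WT) cells. The members were taken by symbol from an expression matrix of 23924 genes, and all 49 were found in it. WT cells were +/+ and TG cells were Tg2087/+, that is, hemizygous for the TgBAC8 transgene of the Tg2087 line, a stretch of the X-inactivation center (*Xic*) that includes *Xist* and is integrated in an autosome and transcribed under its own *Xic* sequences. All cells came from male littermates on the C57BL/6J background, all had been immortalized with the large T gene of Simian virus 40, and all were tetraploid as a result. The age of the mice is not given. There were 2 libraries of each genotype, WT 1 and WT 2 and TG 1 and TG 2. No source states whether the 2 libraries of each genotype were made from different animals or cultures, so the error between them may be technical only. The comparison asks how far the replication genes differ between transgenic and wildtype cells that both divide in culture.

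Replication is prepared in G1, when the origin recognition complex, Cdc6 and Cdt1 load the ring of MCM proteins onto DNA. In S phase Cdc45 and the GINS proteins turn the ring into an active helicase, polymerase alpha-primase lays down primers, and polymerases delta and epsilon extend them while held on DNA by the PCNA clamp. Many of these genes are transcribed at the G1 to S transition by E2F factors, which the RB family holds in check, and large T binds the RB family proteins and p53.

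Library depth ranged from 9465712 reads in WT 1 to 14639946 in WT 2, as worked out from the values. *Xist* was at 0 and 0.108 FPKM in WT and at 2.31 and 2.28 FPKM in TG, where FPKM is fragments per kilobase of gene scaled to library size, so no library went against its genotype label. Of 11 fibroblast markers 8 had a mean of 0.5 FPKM or more. *Vim*, *Thy1*, *Col1a1* and *S100a4* were among the high ones, while *Lum* was listed at 0 in all libraries and *Dcn* and *Fap* were at or near 0. The fibroblast markers summed to 6007 and 5596 FPKM in WT 1 and WT 2 and to 5642 and 5192 FPKM in TG 1 and TG 2. *Col1a1* was at 867 and 789 FPKM in WT against 407 and 539 FPKM in TG. *Col1a2* was at 439 and 311 against 207 and 273 FPKM, and *Pdgfrb* at 56.8 and 57.3 against 31.7 and 26.8 FPKM. *Col3a1* was at 42.5 and 40.2 against 32.3 and 32.6 FPKM, and *Thy1* at 681 and 576 against 452 and 554 FPKM. All of these were lower in both TG libraries. Both TG libraries were higher for *Vim*, at 2255 and 2147 against 2547 and 2349 FPKM. The same held for *Pdgfra*, at 0.0999 and 0.307 against 0.823 and 1.13 FPKM, and for *Dcn*, at 0 in WT against 0.0429 and 0.878 FPKM. The keratinocyte markers summed to 1.92 to 3.17 FPKM, and *Ptprc*, the pan-leukocyte marker, was at 0. The endothelial markers summed to 0.603 and 0.198 FPKM in the WT libraries and to 0.184 and 0.0360 FPKM in the TG libraries. The leukocyte markers summed to 5.21 to 12.2 FPKM and the adipocyte markers to 1.67 to 4.77 FPKM. Like the endothelial list, the lists of 3 other cell types also moved with genotype, at lower levels than the fibroblast markers. The skeletal muscle markers summed to 11.5 and 9.99 FPKM in the WT libraries and 5.45 and 5.37 FPKM in the TG libraries, nearly all of it *Acta1*, with *Myod1*, *Myog* and *Ckm* at 0. The melanocyte markers summed to 0.504 and 0.660 FPKM in the WT libraries and 2.04 and 2.25 FPKM in the TG libraries. Most of it was *Mitf*, with *Tyr* and *Mlana* at 0. In WT 2 *Mitf* was at 0.421 FPKM, *Pmel* at 0.207 FPKM and *Dct* at 0.0323 FPKM. The Schwann cell markers summed to 0.0545 and 0.0714 FPKM in the WT libraries and to 0.684 and 0.689 FPKM in the TG libraries, with *Sox10* at 0. The part of these markers in the results was not tested.

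E2F factors bind a known family of letters near start sites, and these were looked up in the members' promoters. Promoter windows of 300 bases, 250 before the start site and 50 from it on, were read from RefSeq on GRCm38.p6, and 41 of the 49 members had a window. *Rfc2*, *Gmnn*, *Prim2*, *Gins2*, *Gins1*, *Mcm4*, *Gins4* and *Pole* had none in the table. The E2F letters searched were TTTCCCGC, TTTGGCGC and TTTCGCGC on both strands. They were found for 16 of the 41 members (39.0%), against 573 of 27025 genes of the table (2.12%) and 405 of the 9196 tested genes with a window (4.40%). The 16 were *Orc1*, *Orc3*, *Cdc6*, *Cdt1*, *Dtl*, *Mcm3*, *Mcm5*, *Mcm6*, *Mcm7*, *Gins3*, *Pola1*, *Rfc3*, *Pold1*, *Pold3*, *Pole2* and *Lig1*. The CCAAT box (CCAAT) was in the window of 25 of 41 members (61.0%) and of 43.6% of tested genes. The GC box (GGGCGG) was in 31 of 41 (75.6%) and in 71.4% of tested genes. E2F motifs can overlap each other, and a reverse CCAAT box (ATTGG) can share its last letters with a GC box. A match is a description of the letters and not a binding site. Stretches from 9 members are printed to show how the E2F letters recur across the roles, with capitals marking the E2F letters and, for *Pcna*, the CCAAT and GC boxes.
Pcna, chr2:132253181-132253310, minus strand: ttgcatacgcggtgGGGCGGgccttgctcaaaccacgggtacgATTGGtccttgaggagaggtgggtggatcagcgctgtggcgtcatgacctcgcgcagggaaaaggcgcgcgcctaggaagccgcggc
Pold1, chr7:44548766-44548795, minus strand: cacggcggcgtatcttgtgGCGGGAAAagc
Mcm6, chr1:128359736-128359825, minus strand: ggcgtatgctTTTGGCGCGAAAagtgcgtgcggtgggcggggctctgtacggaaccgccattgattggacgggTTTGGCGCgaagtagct
Mcm5, chr8:75109344-75109383, plus strand: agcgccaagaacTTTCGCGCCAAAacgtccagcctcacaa
Dtl, chr1:191575545-191575604, minus strand: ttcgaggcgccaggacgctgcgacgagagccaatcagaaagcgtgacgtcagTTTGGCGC
Gins3, chr8:95633499-95633538, plus strand: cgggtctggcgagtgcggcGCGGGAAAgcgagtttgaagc
Rfc3, chr5:151651209-151651248, minus strand: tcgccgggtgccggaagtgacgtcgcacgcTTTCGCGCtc
Lig1, chr7:13278841-13278870, plus strand: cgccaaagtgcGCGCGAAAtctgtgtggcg
Cdt1, chr8:122568035-122568064, plus strand: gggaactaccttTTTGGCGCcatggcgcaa

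*Mcm6* held 3 E2F motifs, at positions -110, -106 and -47 from the start site, and the first pair shares 4 letters. *Mcm5* held 2 that overlap in the same way, at -153 and -149. In *Dtl* the motif ended at the last base before the start, and in *Pold1*, *Lig1* and *Cdt1* it lay after the start, at 40, 27 and 33. The window of *Pcna* had none of the E2F letters searched, one CCAAT box in the reverse orientation (ATTGG) at -87 and GC boxes at -203 and -116, of which the second is in the stretch above. The windows of *Tk1*, *Rfc4* and *Rfc5* also had none of the E2F letters.

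These genes were expressed at a high level in all 4 libraries. The mean over the libraries was above the median of all tested genes (10.4 FPKM) for 44 of the 49, and their median percentile among tested genes was 83.0. Of the members 9 lay at 100 FPKM or more, where 7.51% of the tested genes lay, 35 lay from 10 to 100 FPKM and 5 lay under 10 FPKM. The highest was *Pcna*, with a mean of 300.5 FPKM, followed by *Gins2* at 209.4 FPKM and *Mcm5* at 157.2 FPKM. The lowest were *Gins3* at 5.77 FPKM, *Orc3* at 5.78 FPKM and *Orc1* at 8.31 FPKM, so that the mean level spanned 52.1-fold. Between neighbours in this order the ranges over the libraries overlapped for 46 of 48 pairs. The exceptions were *Rfc1* above *Orc2* and *Mcm10* above *Pole*.

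**Figure D1:**
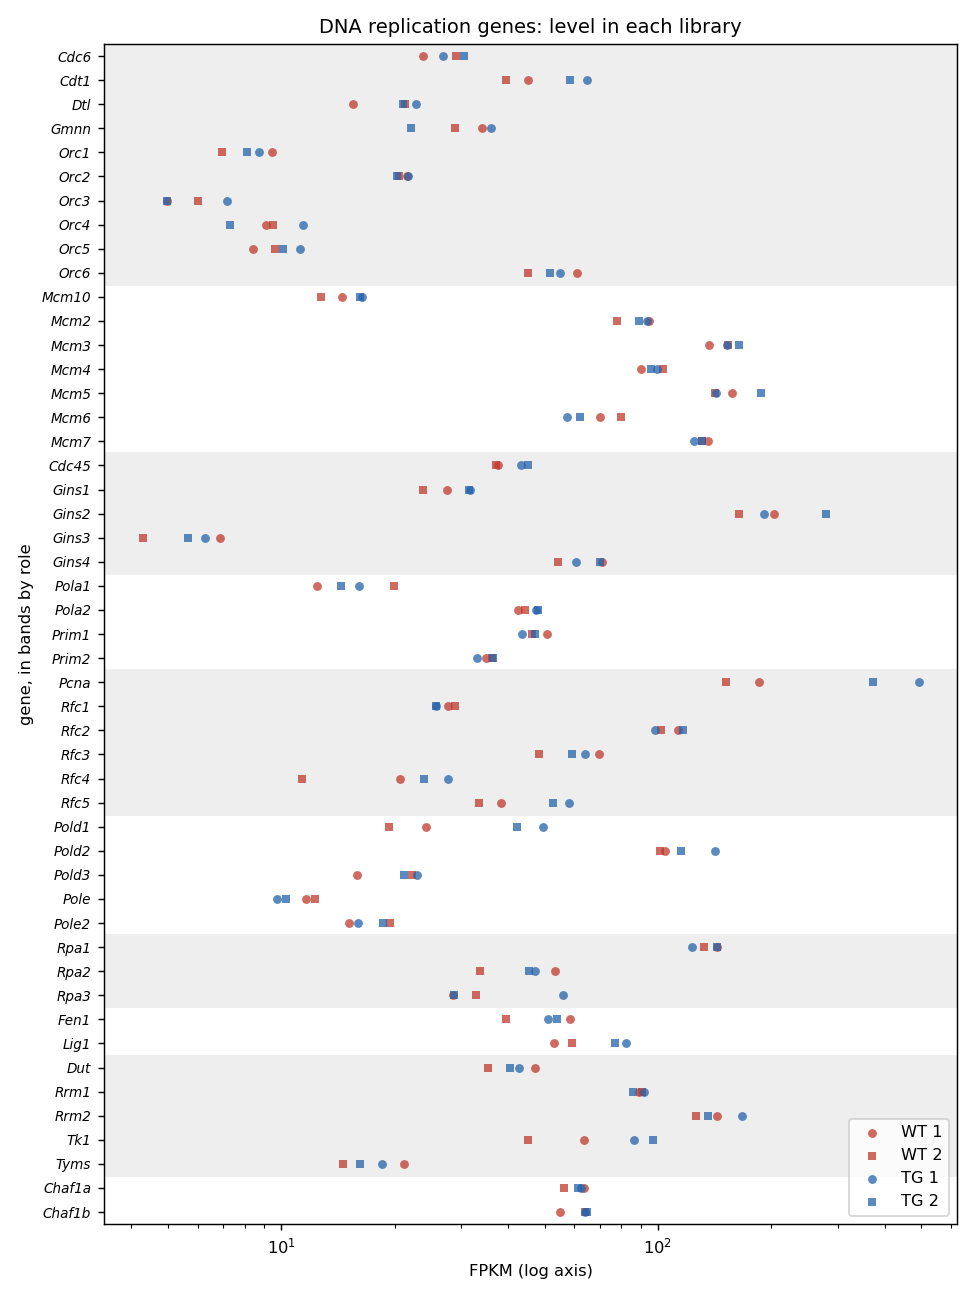
FPKM of the 49 genes on a log axis, grouped by role in shaded bands, with circles for replicate 1 and squares for replicate 2, WT in red and TG in blue. *Pcna* is the gene whose TG points (492 and 373 FPKM) stand farthest to the right of its WT points (185 and 152 FPKM), while for most genes red and blue points are mixed.

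Proteins that act in one complex were not at one RNA level. *Mcm2* to *Mcm7*, which form a ring with one copy of each, had means between 67.4 FPKM (*Mcm6*) and 157.2 FPKM (*Mcm5*), a 2.33-fold span. *Orc1* to *Orc6*, the subunits of the origin recognition complex, spanned 9.20-fold, from *Orc3* to *Orc6* at 53.2 FPKM. *Gins2* was 29.6, 38.3, 30.5 and 49.2 times as high as *Gins3* in WT 1, WT 2, TG 1 and TG 2, although both proteins belong to the 4-subunit GINS complex. For *Gins2*, 67.3% of the exonic bases are also exonic in *Gse1* on the other strand, and whether the counting used the strand is not stated. That share is over the 4097 exonic bases of the annotation read here. The reads and FPKM of *Gins2* imply that a much shorter length was counted, so the share among counted bases is not known. *Gse1* itself was at 6.64 to 10.9 FPKM.

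At an adjusted p under 0.05, 2 of the 49 members were higher in TG and none was lower. Not passing the test does not show that a gene was at the same level in both genotypes. In a bulk sample, more cells in S phase and more RNA per cell cannot be told apart. All 49 had the mean of 0.5 FPKM needed for the test, which was limma on log2(FPKM + 0.5) over 11524 genes with Benjamini-Hochberg adjustment. *Pcna* was the single member called higher, a call being an adjusted p below 0.01 with a difference of 2-fold or more (1 on the log2 scale), where 0.607% of all tested genes were called higher and 1.08% in either direction. No member was called lower, where 0.469% of tested genes were. At an adjusted p under 0.05 without a fold change limit, *Pcna* and *Pold1* were higher (4.08% of members, 2.59% of tested genes) and no member was lower (1.54% of tested genes, 4.13% in either direction). At an unadjusted p under 0.05 there were 7 members (14.3%, against 19.6% of tested genes), all higher in TG. They were *Pcna*, *Pold1*, *Tk1*, *Rfc5*, *Cdt1*, *Lig1* and *Rfc4*. Limma's voom method on reads worked out from the FPKM values called *Pcna* and *Pold1* higher and no member lower, where it called 1.02% of genes higher and 1.28% lower. By voom *Pcna*, *Pold1* and *Tk1* had an adjusted p under 0.05, where 7.63% of genes did in either direction. The counts within role groups that follow are to be read beside these shares.

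The median log2 fold change of the members was 0.12, and that of all tested genes was 0.07. The members' median was 0.21 without WT 1, 0.08 without WT 2, 0.05 after upper-quartile scaling, 0.0130 after quantile normalization and 0.05 by voom. In the same fits, in that order, the median of all tested genes was 0.067, 0.061, 0.007, -0.013 and 0.011. The fitted value was above 0 for 35 members (71.4%, against 57.5% of tested genes) and below 0 for 14. Both TG libraries lay above both WT libraries for 14 members (28.6%, against 30.2%), and both lay below for 3, *Mcm6*, *Pole* and *Rfc1* (6.12%, against 20.3%). The 95% interval of the log2 fold change lay within 1 of 0 on either side for 44 of 49 members. The share over all tested genes was not worked out. The interval reached 1 or more for *Pcna*, *Pold1*, *Rfc4*, *Rfc5* and *Tk1* and reached -1 for none. Without *Pcna* and *Pold1* the median was 0.12 and the highest value 0.76.

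**Figure D2:**
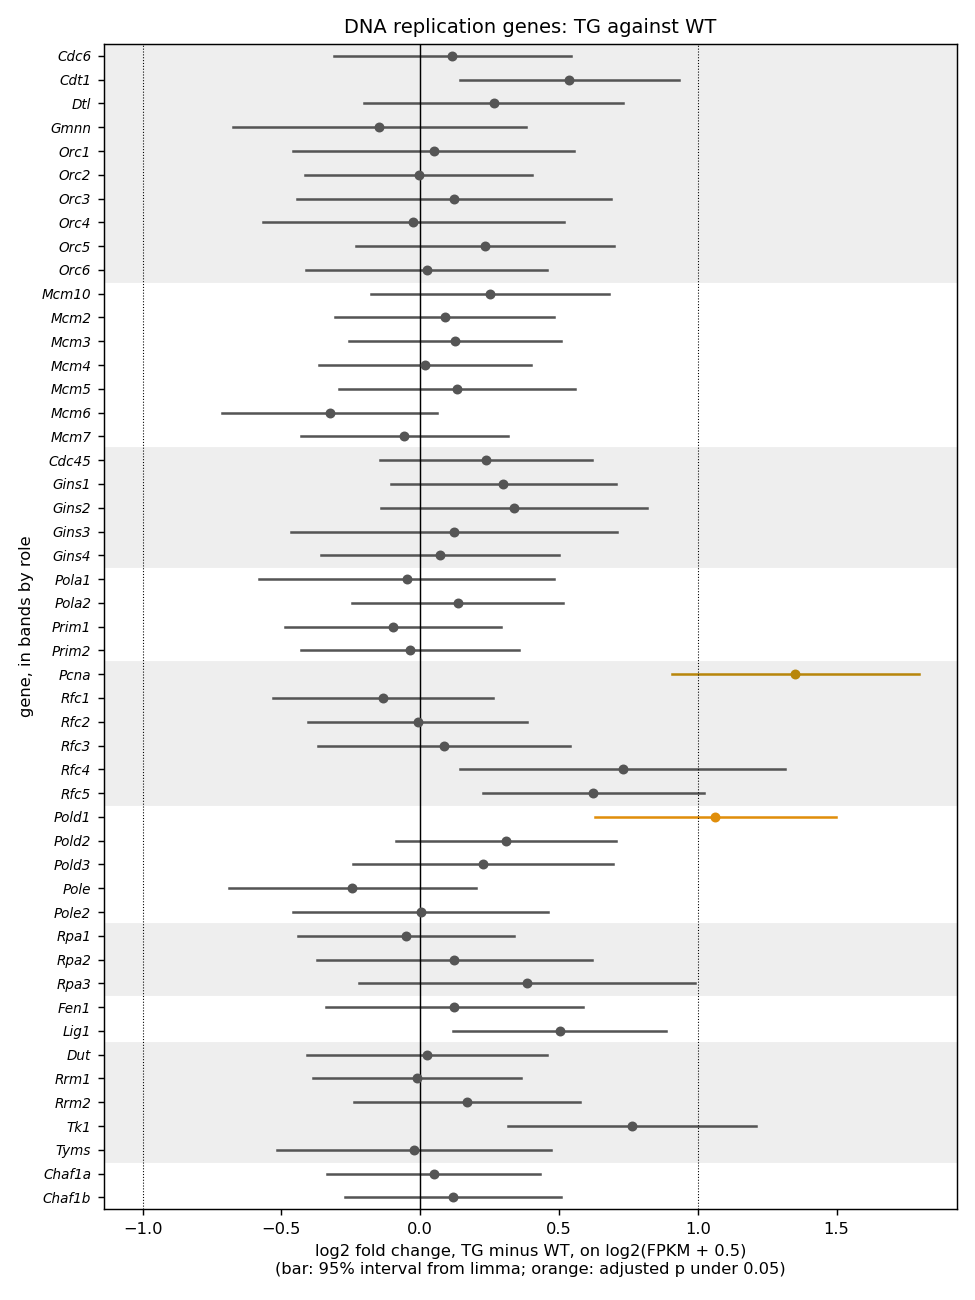
Log2 fold change of TG over WT for each of the 49 genes on the log2(FPKM + 0.5) scale, with the 95% interval from limma as a bar, gray and white bands for the roles and dotted lines at 1 and -1. *Pcna* (1.35) and *Pold1* (1.06), in orange, had an adjusted p under 0.05, and 42 of the 49 intervals include 0.

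The clamp and its loader held the largest difference. *Pcna* encodes the sliding clamp that tethers the polymerases and many other replication proteins to DNA. The WT libraries held it at 185 and 152 FPKM (1948 and 2467 reads) and the TG libraries at 492 and 373 FPKM (6523 and 4582 reads). Each TG library was thus above each WT library by more than either pair of replicates differed. The WT mean was 168 ± 23.7 FPKM (SD, n = 2) and the TG mean was 433 ± 84.6 FPKM (SD, n = 2), a ratio of 2.57. *Pcna* rose by a log2 fold change of 1.35 (SE 0.20, 95% interval 0.91 to 1.80, adjusted p = 0.00562). Its adjusted p was 1.2e-05 by voom, and over 13 alternatives it ranged from there to 0.110. The call was lost in 7 of the 13, although the log2 fold change stayed between 1.15 and 1.55. These were the fits without WT 1 (adjusted p = 0.0482), without WT 2 (0.110) and without TG 1 (0.0293), with no filter on low values (0.0800), with no variance trend (0.0481), after quantile normalization (0.0107) and with the replicate number as a block (0.0242). *Pcna*, from 132249286 to 132253180 on Chr 2, shares no exonic base with another gene of the matrix.

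The 5 subunits of replication factor C, which opens the clamp and loads it at primer ends, did not pass the test. *Rfc4* was at 20.7 and 11.3 FPKM in WT against 27.7 and 23.9 FPKM in TG, for a log2 fold change of 0.73 (adjusted p = 0.159). *Rfc5* was at 38.4 and 33.4 FPKM in WT against 58.2 and 52.8 FPKM in TG, for a log2 fold change of 0.62 (adjusted p = 0.0845). For both genes the 2 TG libraries lay above the 2 WT libraries. *Rfc1*, the large subunit, had 27.8 and 28.9 FPKM in WT against 25.7 and 25.8 FPKM in TG, and *Rfc2* and *Rfc3* had log2 fold changes of -0.01 and 0.09. *Pcna* stood at 1.63 and 1.49 times the level of *Rfc2* in WT and at 5.02 and 3.20 times in TG. Of the exonic bases, 12.7% of *Rfc4* overlap *Eif4a2* and 10.7% of *Rfc5* overlap *Wsb2*, both on the other strand. For *Rfc5* the counted length was much shorter than the 4669 bases behind this share.

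Among the polymerases that extend the strands, the catalytic subunit of polymerase delta was higher in TG and the others did not pass the test. *Pold1* encodes that subunit. It was at 24.3 and 19.4 FPKM in WT 1 and WT 2 and at 49.7 and 42.4 FPKM in TG 1 and TG 2, from 753, 928, 1940 and 1535 reads, with no overlap between genotypes. The WT mean was 21.8 ± 3.49 FPKM (SD, n = 2) and the TG mean was 46.0 ± 5.17 FPKM (SD, n = 2), a ratio of 2.11, and the log2 fold change was 1.06 (SE 0.20, 95% interval 0.63 to 1.497, adjusted p = 0.0151). The adjusted p ranged from 0.00078 by voom to 0.160 over 13 alternatives and was under 0.05 in 8 of them. It was 0.0565 without WT 1, 0.160 without WT 2, 0.0753 without TG 1, 0.0916 with no filter on low values and 0.0783 with no variance trend. *Pold1*, from 44532744 to 44548815 on Chr 7, shares no exonic base with another gene of the matrix.

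The accessory subunits of polymerase delta did not pass the test. *Pold2* was at 104 and 101 FPKM in WT against 141 and 115 FPKM in TG, which is a log2 fold change of 0.31 (adjusted p = 0.379), and *Pold3* had a log2 fold change of 0.23. The ratio of *Pold1* to *Pold2* was 0.232 and 0.191 in WT and 0.351 and 0.368 in TG. *Pole*, the catalytic subunit of polymerase epsilon, had its lower values in TG, at 11.7 and 12.3 FPKM in WT against 9.77 and 10.3 FPKM in TG, for a log2 fold change of -0.24 (SE 0.20, 95% interval -0.69 to 0.20, adjusted p = 0.560). Its partner *Pole2* had a log2 fold change of 0.00. These differences between subunits were not tested.

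**Figure D3:**
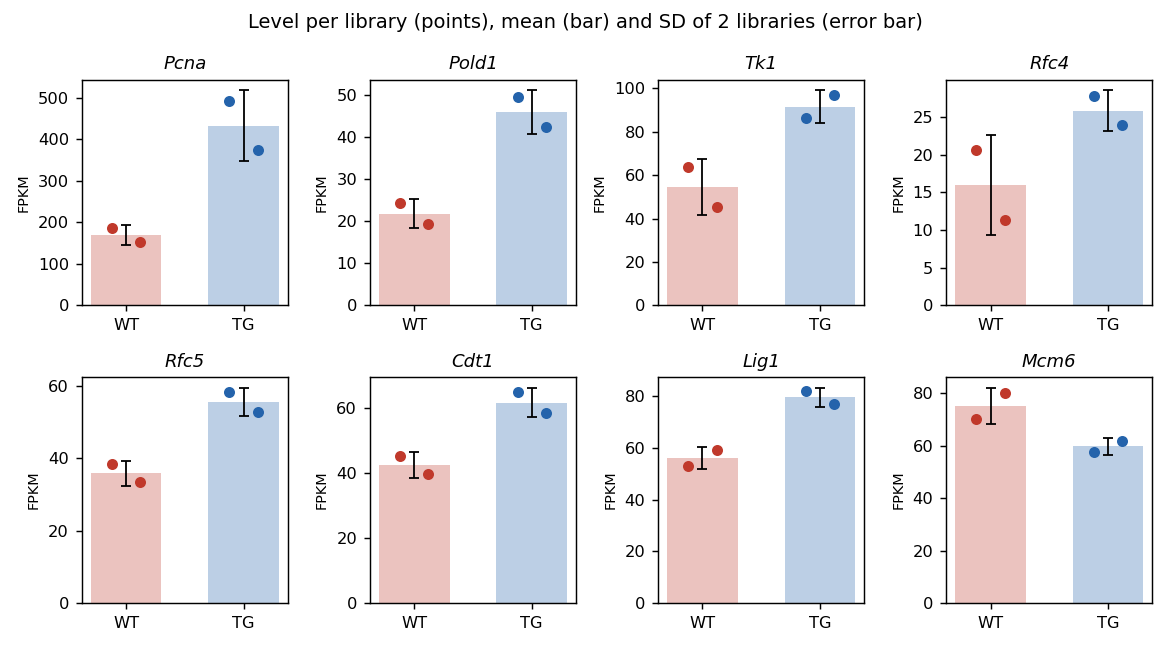
FPKM of 8 members in each library (points), with the mean of each genotype (bar) and the SD of its 2 libraries (error bar), each gene on its own axis from 0. In *Pcna*, *Pold1*, *Tk1*, *Rfc4*, *Rfc5*, *Cdt1* and *Lig1* both TG points lie above both WT points, and in *Mcm6* both lie below.

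Of the 10 origin and licensing genes none had an adjusted p under 0.05, where 4.13% of tested genes did. Only *Cdt1* had an unadjusted p under 0.05, where 19.6% of tested genes did. Their median log2 fold change was 0.08. *Cdt1*, the loading factor that is destroyed once S phase begins, was at 45.3 and 39.6 FPKM in WT against 64.9 and 58.6 FPKM in TG, which is a log2 fold change of 0.54 (95% interval 0.14 to 0.93, adjusted p = 0.131). *Gmnn* encodes geminin, the inhibitor of Cdt1. It was at 34.1, 28.9, 36.1 and 22.2 FPKM in WT 1, WT 2, TG 1 and TG 2, so that the 2 TG libraries lay on either side of WT, and its log2 fold change of -0.15 (SE 0.24, 95% interval -0.67 to 0.38, adjusted p = 0.789) was smaller than the difference between the TG libraries (-0.69). *Dtl* encodes the adaptor that brings Cdt1 and p21 to the CRL4 ubiquitin ligase on DNA-bound PCNA. It was at 15.5, 21.4, 22.8 and 21.1 FPKM, with a log2 fold change of 0.26 (SE 0.21, 95% interval -0.20 to 0.73, adjusted p = 0.548), and WT 1 alone was low. *Cdc6*, the ATPase that completes MCM loading, had a log2 fold change of 0.12. Over *Orc1* to *Orc6* the median was 0.04, with a range of -0.02 (*Orc4*) to 0.23 (*Orc5*). *Orc5* was at 8.39 and 9.61 FPKM in WT against 11.2 and 10.1 FPKM in TG, without overlap. *Orc1* was at 9.45, 6.97, 8.73 and 8.11 FPKM and *Orc3* at 4.97, 5.995, 7.17 and 4.99 FPKM in WT 1, WT 2, TG 1 and TG 2, and the genotypes overlapped for both.

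None of the 7 MCM genes passed the test. For *Mcm2* to *Mcm7* the median log2 fold change was 0.05 and the 95% intervals together ran from -0.71 to 0.56, so that a 2-fold change in either direction lay outside the interval of each. *Mcm6* was at 70.2 and 80.0 FPKM in WT against 57.5 and 61.9 FPKM in TG, the lowest fold change of all members (log2 -0.33, SE 0.17, 95% interval -0.71 to 0.06, adjusted p = 0.343). Its partners in the ring did not lie below WT in both TG libraries. *Mcm3* was at 137, 154, 152 and 164 FPKM in WT 1, WT 2, TG 1 and TG 2, with a log2 fold change of 0.13 (SE 0.17, 95% interval -0.26 to 0.51, adjusted p = 0.747). *Mcm5* was at 157, 141, 142 and 188 FPKM, with a log2 fold change of 0.13 (SE 0.19, 95% interval -0.29 to 0.56, adjusted p = 0.759), and only TG 2 stood above the others. *Mcm2*, *Mcm4* and *Mcm7* had log2 fold changes of 0.09, 0.02 and -0.06. The ratio of *Mcm3* to *Mcm6* was 1.95 and 1.92 in WT and 2.65 and 2.66 in TG, a difference that was not tested. *Mcm10*, which is no part of the ring and helps to activate it, was at 14.5 and 12.8 FPKM in WT against 16.4 and 16.2 FPKM in TG, which is a log2 fold change of 0.25 (adjusted p = 0.534).

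The helicase partners of the ring had fitted values above 0 and none passed the test. Over *Cdc45* and the 4 GINS genes the median log2 fold change was 0.24. *Cdc45* was at 37.6 and 37.2 FPKM in WT against 43.3 and 45.1 FPKM in TG (log2 fold change 0.24, adjusted p = 0.505), and *Gins1* was at 27.5 and 23.8 FPKM in WT against 31.6 and 31.6 FPKM in TG (log2 fold change 0.30, adjusted p = 0.409). *Gins2* was at 203, 164, 191 and 279 FPKM in WT 1, WT 2, TG 1 and TG 2, with a log2 fold change of 0.34 (SE 0.22, 95% interval -0.14 to 0.82, adjusted p = 0.438), and TG 2 alone was high. *Gins3*, the lowest of all members, was at 6.86, 4.29, 6.26 and 5.67 FPKM from 142 to 169 reads, with a log2 fold change of 0.12 (SE 0.27, 95% interval -0.46 to 0.71, adjusted p = 0.850). The values of the 2 genotypes overlapped. *Gins4* had a log2 fold change of 0.07.

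Polymerase alpha-primase, which starts every new strand, had the lowest median of the role groups, -0.04. *Pola1*, the catalytic subunit and the only member on Chr X, was at 12.4, 19.9, 16.1 and 14.4 FPKM in WT 1, WT 2, TG 1 and TG 2, with the difference between the WT libraries (log2 0.66) the largest of all members in the upward direction. *Pola2*, the regulatory subunit, was at 42.6 and 44.3 FPKM in WT against 47.4 and 48.2 FPKM in TG (log2 fold change 0.13, adjusted p = 0.724). The primase subunits *Prim1* and *Prim2* had log2 fold changes of -0.10 and -0.04.

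The 3 RPA genes, whose proteins coat single-stranded DNA, overlapped between genotypes. *Rpa1* and *Rpa2* had log2 fold changes of -0.05 and 0.12. *Rpa3* was at 28.5 and 33.0 FPKM in WT against 55.9 and 28.8 FPKM in TG, from 132 to 326 reads. TG 1 alone was high, and the difference between the TG libraries (log2 -0.94) exceeded that between the genotypes (log2 0.38, adjusted p = 0.492). Of the enzymes that finish Okazaki fragments, *Lig1*, the ligase, was at 53.1 and 59.0 FPKM in WT against 82.1 and 77.0 FPKM in TG (log2 fold change 0.50, 95% interval 0.12 to 0.89, adjusted p = 0.141). *Fen1*, the flap nuclease, had a log2 fold change of 0.12 and overlapped. Both TG libraries lay above both WT libraries for *Lig1*, which did not pass the adjusted test.

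Of the 5 genes that supply nucleotides none passed the test by limma, and *Tk1* had the largest fold change. *Tk1*, the thymidine kinase of the salvage pathway, was at 63.6 and 45.3 FPKM in WT 1 and WT 2 and at 86.4 and 96.9 FPKM in TG 1 and TG 2, from 735 to 1308 reads. The genotypes did not overlap, and the WT mean was 54.5 ± 12.98 FPKM (SD, n = 2) and the TG mean was 91.7 ± 7.43 FPKM (SD, n = 2). The log2 fold change was 0.76 (SE 0.20, 95% interval 0.32 to 1.21, adjusted p = 0.0636), and by voom the adjusted p was 0.0239. Over 13 alternatives the adjusted p ran from that value to 0.344 and was under 0.05 in 1 of them. The subunits of ribonucleotide reductase, *Rrm1* and *Rrm2*, had log2 fold changes of -0.01 and 0.17, *Dut*, which removes dUTP, had 0.02, and *Tyms*, the thymidylate synthase, had -0.02. *Tyms* was at 14.6 to 21.2 FPKM and its processed copy *Tyms-ps* at 29.3 to 37.3 FPKM, so the split of reads between them is uncertain. The CAF-1 subunits *Chaf1a* and *Chaf1b*, which place histones on new DNA, had log2 fold changes of 0.05 and 0.12. Of the exonic bases of *Chaf1a*, 52.5% overlap *Ubxn6* on the other strand. For *Chaf1a* the counted length was much shorter than the 8854 bases behind this share. *Chaf1b* was at 55.04 and 63.97 FPKM in WT against 64.04 and 64.8 FPKM in TG, where the lower TG library exceeded the higher WT library by less than 1 FPKM.

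The 5 members on Chr 1, one of the chromosomes that the study marked with paint probes, were *Mcm3* (start 20802966), *Prim2* (33453808), *Orc2* (58462771), *Mcm6* (128331575) and *Dtl* (191537356). None passed either threshold of the test, and their median log2 fold change was -0.01. *Prim2* was at 35.0 and 36.3 FPKM in WT against 33.1 and 36.4 FPKM in TG, which is a log2 fold change of -0.04 (SE 0.18, 95% interval -0.43 to 0.35, adjusted p = 0.932). *Orc2* was at 21.55, 20.6, 21.7 and 20.3 FPKM in WT 1, WT 2, TG 1 and TG 2, a log2 fold change of -0.01 (SE 0.18, 95% interval -0.41 to 0.40, adjusted p = 0.992). *Orc2* shares 29.8% of its exonic bases with *Nif3l1* on the other strand. The other members lay on 14 further chromosomes, with most on Chr 5 (8 genes) and Chr 8 (6 genes).

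The spread between libraries of one genotype set the size of difference that could be seen. For 34 of 49 members the WT libraries or the TG libraries differed by more than TG differed from WT. A difference between single libraries varies more than a difference between means, and the share over all tested genes was not worked out. That number of members is therefore no measure of whether a gene differed between genotypes. The difference WT 2 minus WT 1 had a median of -0.13 over the members (SD 0.32, from -0.84 in *Rfc4* to 0.66 in *Pola1*), and over all tested genes it was 0.01 (SD 0.45). The difference TG 2 minus TG 1 had a median of -0.07 (SD 0.26, from -0.94 in *Rpa3* to 0.54 in *Gins2*), and over all tested genes it was -0.04 (SD 0.46). The SD of TG minus WT was 0.31 over the members and 0.52 over all tested genes. With 2 libraries against 2, no exact permutation test can reach a p under 0.333, so single genes were tested only in the fit across all genes.

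**Figure D4:**
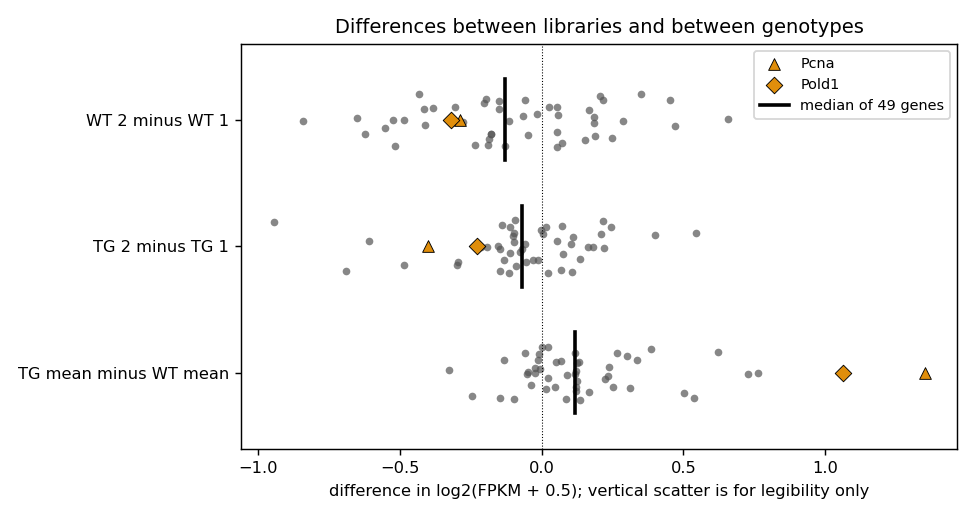
Differences in log2(FPKM + 0.5) for the 49 genes, given for WT 2 minus WT 1 (top), TG 2 minus TG 1 (middle) and the TG mean minus the WT mean (bottom), with 1 point per gene and a bar at the median. In the bottom row *Pcna* (triangle) and *Pold1* (diamond) stand to the right of the other 47 genes, and in the upper rows they lie among the others.

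Summed over the 49 members, the level was 2867 and 2628 FPKM in the WT libraries and 3325 and 3268 FPKM in the TG libraries. Without *Pcna* it was 2682, 2476, 2833 and 2896 FPKM. *Pcna* made up 6.46% and 5.77% of the sum in WT and 14.8% and 11.4% in TG. The cycling markers *Mki67*, *Top2a*, *Ccnb1* and *Cdk1* summed to 132 and 140 FPKM in WT against 189 and 150 FPKM in TG, and their part in these results was not tested. All 4 were detected in every library.

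Other replication genes were read in the same fit. Of 55 other genes of initiation, fork protection, lagging-strand processing, nucleotide supply and histone supply, 53 were tested. Limma called 0 and found 0 at an adjusted p under 0.05, against 1.08% and 4.13% of tested genes. At an unadjusted p under 0.05 there were 7 (13.2%, against 19.6% of tested genes). By voom 3 had an adjusted p under 0.05, *Asf1b*, *Rnaseh2c* and *Dctpp1*, where 7.63% of all genes did in either direction. *Gmnc* was listed at 0 in all libraries and *Mcmdc2* in 3 of 4. The median log2 fold change was 0.07, equal to that of all tested genes at this precision. The 2 TG libraries lay above WT for 19 genes (35.8%, against 30.2% of tested genes) and below for 5 (9.43%, against 20.3%). The largest value belonged to *Pold4*, the small subunit of polymerase delta, at 2.32, 1.67, 2.36 and 10.5 FPKM in WT 1, WT 2, TG 1 and TG 2 (log2 fold change 1.18, SE 0.51, adjusted p = 0.230), where TG 2 alone was high. *Rnaseh2c*, a subunit of the ribonuclease that removes RNA from DNA, was at 125, 67.1, 176 and 152 FPKM (log2 fold change 0.83, SE 0.26, adjusted p = 0.109). *Asf1b*, a histone chaperone named here after its values were seen, was at 73.4, 51.2, 118 and 101 FPKM (log2 fold change 0.83, SE 0.21, adjusted p = 0.0528).

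Genes of mitosis and of E2F and RB control give the cell-cycle setting. None of 22 mitosis genes passed an adjusted p under 0.05 by limma or by voom, where 4.13% and 7.63% of tested genes did. By limma 5 had an unadjusted p under 0.05 (22.7%, against 19.6% of tested genes). Their median log2 fold change was 0.27. Both TG libraries lay above WT for 11 (50%, against 30.2% of tested genes) and below for 1, *Incenp* (4.55%, against 20.3%). *Bub1*, a spindle checkpoint kinase, was at 9.69, 9.12, 18.5 and 12.4 FPKM in WT 1, WT 2, TG 1 and TG 2 (log2 fold change 0.66, SE 0.23, adjusted p = 0.145), and *Cenpf*, a kinetochore protein, at 6.01, 6.80, 11.4 and 7.70 FPKM (log2 fold change 0.52, SE 0.24, adjusted p = 0.274). In both genes TG 1 was the highest library.

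Of 18 E2F and RB family genes and CDK inhibitors, none was called, against 1.08% of tested genes. By limma 1, *Cdkn1a*, was lower at an adjusted p under 0.05 (5.56%, against 1.54% of tested genes). *Cdkn1a* encodes p21, which inhibits the cyclin-dependent kinases and binds PCNA. It was at 186 and 192 FPKM in WT against 127 and 101 FPKM in TG, with no overlap. The log2 fold change was -0.74 (SE 0.18, adjusted p = 0.0495, and 0.00255 by voom). The limma value lay just under the threshold, and voom was the only alternative read for this gene. *E2f7*, a repressor E2F, was at 17.6 and 25.8 FPKM in WT against 15.5 and 13.9 FPKM in TG (log2 fold change -0.52, SE 0.22, adjusted p = 0.228). The median of the 18 was -0.09, and 2 of them had an unadjusted p under 0.05 (11.1%, against 19.6% of tested genes). The E2F letters were in the promoter window of 6 of 15 genes of this list (40.0%), of 9 of 44 other replication genes (20.5%) and of 1 of 18 mitosis genes (5.56%).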

How the data were processed

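Polyadenylated RNA of 2 WT and 2 TG fibroblast samples was sequenced in paired-end mode from strand-specific, random-primed cDNA. The authors used Rsubread for alignment to mm10 and for gene counts, and deposited FPKM values, 1 column per library. DESeq is named in the submitters' processing notes. Strand setting, annotation and handling of multiply mapped reads are not given in the sources used here, which bears on paralogs and overlapping genes. Shares of overlapping exonic bases are over the annotation read here, where a gene can be longer than the length that was counted.

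The 49 members and the other lists were chosen with earlier results of these data known. Genotypes were taken from the labels. The 11524 genes averaging 0.5 FPKM or more were tested with limma 3.58.1 in R 4.3.3 (variance trend) on log2(FPKM + 0.5) with Benjamini-Hochberg adjustment over all of them, and a fold change on this scale is understated for low genes. A call needed an adjusted p below 0.01 with a log2 difference of 1 or more either way, and a threshold of 0.05 was read beside it. SD is over the 2 libraries, and no test was run over a list.

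Whole reads were worked out from the ratios of the FPKM values between libraries. They fitted 15528 of 15530 genes above 0 within 0.6 of the last printed digit. For 1433 genes the common factor was set from the exonic length. They gave totals of 9465712, 14639946, 11923758 and 11063020 reads (WT 1, WT 2, TG 1, TG 2), on which voom was run as an alternative. The read number of a member was 132 to 6846 per library.

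The genes given with full values are those past a threshold, the 3 largest log2 fold changes in each direction, the 3 highest and 3 lowest levels, the members on Chr 1, and the 2 largest log2 fold changes of each other list. Every other member is described within its role group, with its level in each library where the unadjusted p was under 0.05 or where the genotypes did not overlap. Levels of *Pola1* and *Rpa3* were added because libraries of a genotype stood far apart. Others that stood apart, such as *Rpa2* (WT 2 minus WT 1, log2 -0.65) and *Orc4* (TG 2 minus TG 1, log2 -0.61), were not. These choices were made after the values were seen. *Asf1b*, *Dctpp1* and *Incenp* were named after their values were seen. Genes were placed on GRCm38. The alternatives were pseudocounts of 1 and 0.1, no filter or a minimum mean of 1 FPKM, a fit with no variance trend, upper-quartile and quantile scaling, the replicate number as a block, leaving out each library, voom, and the 0.05 threshold. Both fits were also run on simulated data. The changes planted there were larger than that of any member, so the run does not show how the fits do at smaller changes.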

Additional observations from a re-analysis of the deposited data

How the results depend on the processing

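With 1 library left out, a genotype held 1 library, which was assumed to vary like the other genotype. Over all tested genes 54 were called lower and 70 higher. The numbers were 1 and 0 with no filter on low values (15530 genes), 6 and 3 without a variance trend, 8 and 12 with the replicate block, 147 and 118 by voom, 178 and 298 at an adjusted p under 0.05, and 55 and 47 after quantile normalization. Leaving out a library gave 1 to 47 lower and 0 to 66 higher, with 1 and 0 without WT 1 and 2 and 7 without WT 2.

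Of the members, 1 was called higher. This became 0 with no filter, without a variance trend, after quantile normalization and with the replicate block, 2 by voom and 2 at an adjusted p under 0.05, and 0 to 1 when a library was left out (1 without TG 2). The 2 members higher at an adjusted p under 0.05 became 0 with no filter and 1 without a variance trend, and 0 to 2 when a library was left out. No member was called lower in any of these.

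Same-numbered libraries did not deviate together (correlation of deviations -0.03 over 11524 genes). The labels do not say whether same-numbered libraries were processed together, and this correlation cannot decide it. With the replicate block the adjusted p was 0.0242 for *Pcna* and 0.0485 for *Pold1*.

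The median log2 fold change of the mitosis genes was 0.14 after quantile normalization. That of the E2F and RB family genes was -0.19 after quantile normalization and -0.14 to 0.0182 when a library was left out. Fold changes near 0 changed sign when a library was left out, between -0.19 and 0.43 for *Gins3*, -0.49 and 0.20 for *Gmnn*, -0.0677 and 0.33 for *Mcm5*, -0.16 and 0.26 for *Orc1*, -0.0541 and 0.0425 for *Orc2*, -0.12 and 0.36 for *Orc3*, and -0.11 and 0.0299 for *Prim2*. *Orc1* was also at -0.0157 after upper-quartile scaling and at -0.0132 after quantile normalization. The causes were not tested. The standard error of a member's log2 fold change was 0.17 to 0.27 with 2 libraries of each genotype.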
